A study of Mus musculus with 55 samples.

Results

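The genes described here are 36 mouse genes, listed as long transcripts for cytoskeletal proteins, ubiquitin ligases, receptors, calcium pumps and RNA-related proteins. Many of them are known as targets of the RNA-binding protein FMRP. They were chosen by name, as a listed set, and all 36 were found among the 22800 gene symbols counted in the series. FMRP, the product of Fmr1, binds messenger RNAs in neurons, mostly along their coding sequence, and is known for holding back their translation. Its targets are rich in long messages for synaptic and cytoskeletal proteins, and loss of the protein causes fragile X syndrome. An effect on translation need not appear in the amount of an RNA, and RNA is what was measured here.

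The study drew the cytosol of individual pyramidal cells in mouse prefrontal cortex into a patch pipette and sequenced the RNA of each cell. Cells were labelled D1 or D2 (D1+ and D2+ principal neurons). The knockout cells came from Fmr1-/y mice, a model of fragile X syndrome, and the wild-type cells from mice labelled as having no knockout. The 4 groups were 6 knockout D1 cells (1 at 31 days of age, 5 at 32 days), 15 wild-type D1 cells (28 to 34 days), 7 knockout D2 cells (all at 32 days) and 26 wild-type D2 cells (29 to 35 days). The side label separated D1 from D2 cells exactly, so cell kind and side cannot be told apart. Genotype and age overlapped only in part. The labels name no animal, so cells of 1 group, or D1 and D2 cells of 1 genotype, may share one. Each group therefore counts as 1 sample, and no p-value is given. SDs below are spreads over cells.

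As a set the 36 genes were long in the annotation (GENCODE vM21, genome build GRCm38). Their merged exons, which join the exons of all annotated transcripts of a gene, had a median of 16.1 kb. The median over all measured genes was 4.74 kb. The 36 ran from 3.34 kb for Ubqln2, which is shorter than that median of all measured genes, to 41.2 kb for Dst. AGGA and TGGA are the DNA spellings of a short element, known as WGGA from its RNA form, that has been described at FMRP binding sites. Both were searched on the sense strand of the longest annotated coding sequence, counting matches that share a base. The 60-base windows with the most matches in 3 of the genes show what the motif looks like in these messages. They are given with the matches in capitals, and come from chromosome 2 (Map1a, coding bases 1971 to 2030, 9 matches), chromosome X (Huwe1, coding bases 7272 to 7331, 9 matches) and chromosome 16 (App, coding bases 711 to 770, 8 matches), counted from the first base of the start codon.
Map1a: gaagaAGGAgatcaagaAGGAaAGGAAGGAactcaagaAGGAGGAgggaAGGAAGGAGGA
Huwe1: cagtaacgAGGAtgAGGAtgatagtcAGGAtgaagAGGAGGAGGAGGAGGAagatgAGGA
App: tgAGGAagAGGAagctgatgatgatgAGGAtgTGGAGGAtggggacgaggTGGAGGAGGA

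Per kb of coding sequence the motif had much the same density in the 36 genes as in other genes. The median was 16.1 matches per kb in the 36 (quartiles 14.2 and 18.4) and 16.3 per kb in 10589 measured genes with a coding sequence (quartiles 13.4 and 19.6). A second element described for FMRP, spelled ACTG or ACTT, had medians of 8.14 and 8.21 matches per kb. At this length nearly every coding sequence holds a match: 100% of the 36 and 99.9% of the measured genes held AGGA or TGGA. The 36 coding sequences differed in size, with a median of 8215.5 bases against 1440 bases. A match describes the letters only and is not a binding site.

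Depth ranged from 260943 to 10673072 counts per cell, and cells had reads in 1511 to 9938 genes. A cell with reads in at least 4000 genes is called gene-rich here. Gene-rich cells numbered 6 of 6 in the knockout D1 group, 9 of 15 in the wild-type D1 group, 6 of 7 in the knockout D2 group and 13 of 26 in the wild-type D2 group, so complexity moved with genotype. Fmr1 had 0 reads in every knockout cell, which allows up to 0.0929 CPM over the knockout D1 cells and 0.0712 CPM over the knockout D2 cells. Among wild-type cells 8 of 15 D1 and 13 of 26 D2 held reads of it. Slc17a7, the vesicular glutamate transporter of cortical pyramidal cells, was read in 52 of 54 cells. The 10 pyramidal markers summed to between 1234 and 2678 CPM in knockout D1 cells, 128 and 4645 CPM in wild-type D1 cells, 636 and 4476 CPM in knockout D2 cells, and 873 and 5395 CPM in wild-type D2 cells. Transcripts of the 12 microglia markers were present too, at medians of 439, 898, 249 and 713 CPM in the same order, with ranges that overlapped and no microglia marker at 0 in any group. Of the 11 microglia markers measured, 9 were lower in knockout than in wild-type D1 cells (median -0.94 log2 units), beside 25.3% of all measured genes (median 0.98). In D2 cells 8 of 11 were higher in the knockout (median 0.47), close to all measured genes (68.5%, median 0.56). In gene-rich cells 10 of 11 were lower in knockout D1 cells (median -1.63), beside 46.4% of measured genes (median 0.14). In gene-rich knockout D2 cells 9 of 12 were lower (median -0.44), beside 61.6% of measured genes (median -0.39). Astrocyte markers had medians of 441, 628, 294 and 487 CPM, oligodendrocyte markers 393, 338, 1062 and 583 CPM, interneuron markers 0, 0.398, 44.1 and 9.35 CPM, and endothelial markers under 1 CPM in every group, in the same order. Of the 8 interneuron markers 6 were at 0 in all knockout D1 cells, among them Gad2, Slc32a1 and Pvalb. The part of other cells' RNA in the results below was not tested.

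The share of all counts that the 36 genes took together varied widely between cells. It was 1.05%, 1.21% and 1.501% (lowest, median and highest) in knockout D1 cells, against 0.170%, 0.707% and 1.15% in wild-type D1 cells. In knockout D2 cells it was 0.295%, 0.947% and 1.56%, against 0.0411%, 0.830% and 1.64% in wild-type D2 cells. The knockout D1 cells thus lay in the upper part of the wild-type D1 range and beyond it, while both D2 ranges overlapped almost wholly. Between 31 and 36 of the genes were read in each knockout D1 cell, against 12 to 36 in wild-type D1 cells. The D2 numbers were 27 to 36 in knockout cells and 10 to 36 in wild-type cells. The low wild-type counts belonged to cells under 4000 genes, which held 12 to 22 of the 36 among D1 cells and 10 to 28 among D2 cells. Gene-rich wild-type cells held 28 to 36 among D1 and 32 to 36 among D2.

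**Figure D1:**
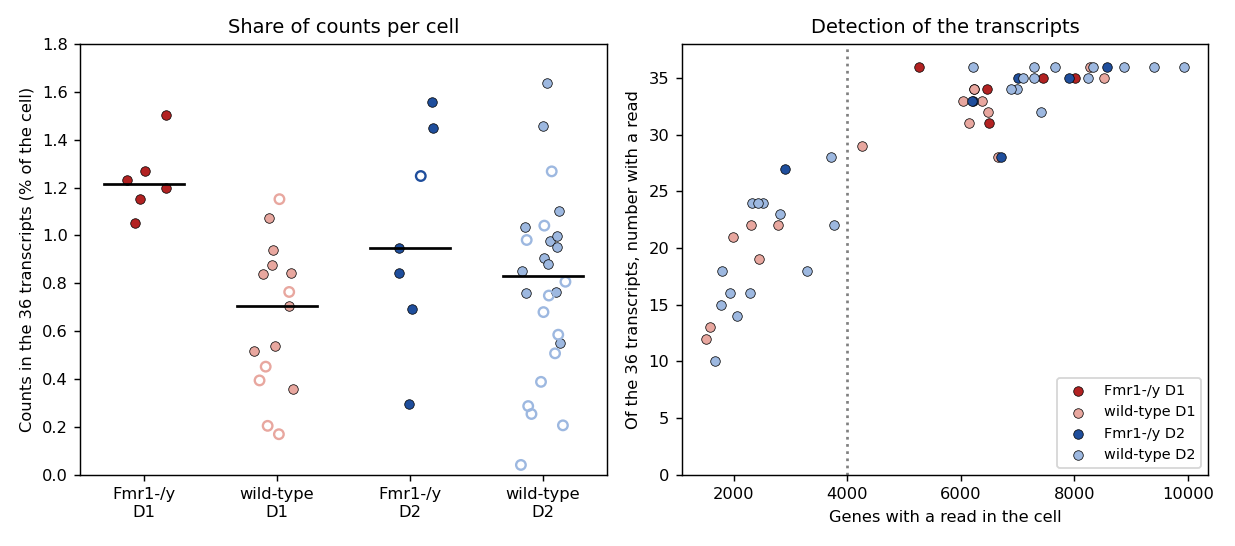
Share of all counts taken by the 36 transcripts (left, percent) and number of the 36 with a read (right, against the number of genes with a read), 1 point per cell. In the left panel filled points are cells with reads in at least 4000 genes, open points the others, and lines are medians. In the right panel every point is filled, and a dotted line marks 4000 genes. All 6 knockout D1 cells lie at or above 1.05%, and cells with few genes hold few of the 36.

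Detection of single members followed the same split. Map1a and Map1b were the genes with a read in all 54 cells. Another 11 of the 36 were read in all 34 gene-rich cells: Map2, Ank2, Ank3, Sptbn1, Sptan1, Dst, Mycbp2, App, Atp2a2, Prrc2c and Hivep2. Kidins220, a membrane scaffold of neurotrophin receptors, was read in 31 of 34 gene-rich cells but in 2 of the 20 others. Celsr3 was read in 29 of 54 cells, the fewest of the 36, with 26 of 34 gene-rich cells and 3 of the 20 others. In these cells a level of 0 for a long transcript is common, and fewer molecules in the cell cannot be told apart from fewer molecules captured.

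Per kb of merged exon, levels over all 54 cells ran from 0.863 CPM per kb for Prrc2a, an RNA-associated proline-rich protein, to 51.6 CPM per kb for Atp2a2, the calcium pump of the endoplasmic reticulum. The microtubule protein Map1b (49.4 CPM per kb), the amyloid precursor App (44.5), the dendritic microtubule protein Map2 (37.6) and the spectrins Sptan1 (34.2) and Sptbn1 (33.6) came next. Neighbours in this order had spreads over cells wider than the steps between them, as with App at 579 ± 772 CPM and Map2 at 619 ± 789 CPM (SD, n = 54 cells). The large ubiquitin ligases had 18.6 for Mycbp2, 9.55 for Herc1, 9.32 for Herc2, 5.11 for Huwe1, 4.92 for Birc6 and 2.78 for Ubr4. The exons of 13 of the 36 share bases with exons of a gene on the other strand, up to 1493 bases in Dst, 1012 in Herc1, 946 in Hivep2, 738 in Prrc2b and 611 in Birc6. Another 4 (Ubr4, Tnrc6b, Huwe1 and Celsr3) share 65 to 109 bases with a gene on the same strand. The library kit, Nextera XT, does not mark strand, so reads from such stretches cannot be assigned to a gene.

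**Figure D2:**
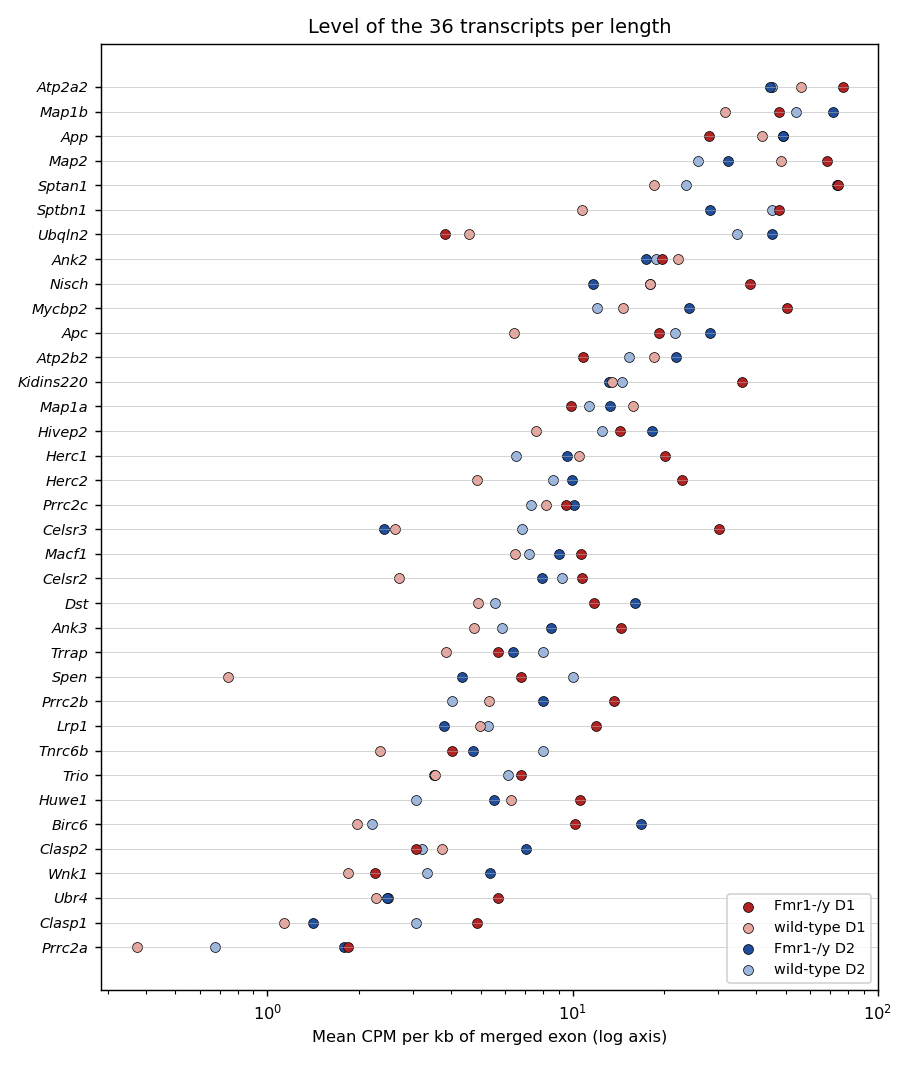
Mean CPM per kb of merged exon of each of the 36 genes in the 4 groups, on a log axis. Over all cells Atp2a2 is the highest at 51.6, followed by Map1b (49.4) and App (44.5), and Prrc2a is the lowest at 0.863.

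Differences below are the mean over cells of log2(CPM + 1) in the first group minus that in the second, in log2 units, where CPM is a gene's count scaled by the total count of the cell. They were computed for genes with a mean of 1 CPM or more that were read in 10% or more of the cells, a limit all 36 genes passed in each of the 4 comparisons. A difference of at least 2 log2 units in size is called large here, as a description and not a test. As a reference of roughly similar length and level, 543 other genes served as like genes. Their merged exons and mean CPM lay inside the 10th to 90th percentile range of the 36 (9965.5 to 29433 bases, 63.2 to 583 CPM). The match was to a range only. The median coding sequence was 3123 bases in like genes, against 8215.5 bases in the 36. The like genes may also include other FMRP targets. Comparing the 36 with them therefore cannot separate length from membership.

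Comparing knockout with wild-type D1 cells, 35 of the 36 transcripts were higher in the knockout cells and 1 was lower, where 93.0% of the like genes and 74.7% of all measured genes were higher. Their median difference was 2.52 log2 units, and 24 of the 36 were higher by at least 2, against 27.6% of all 10792 measured genes. None was lower by 2 or more, which 1.34% of measured genes were. The like genes had almost the same distribution: a median of 2.54, with 356 of 543 (65.6%) higher by at least 2, beside 66.7% of the 36. All measured genes had a median of 0.98. Of the 36, 18 lay above the median of the like genes. No gene of the 36 had groups that did not overlap, in this or any other comparison. Overlap was not counted over all measured genes, so this says nothing particular about the 36.

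Within gene-rich cells, the median of the 36 was 1.25 log2 units, with 29 higher and 7 lower in knockout D1 cells. The count higher by at least 2 was 9, where 11.6% of measured and 27.6% of like genes were. None was lower by 2 or more, where 7.67% of measured and 3.50% of like genes were. Like genes had a median of 1.12 and all measured genes 0.14. Differences in D1 cells were larger for longer genes over the whole table. Medians were 0.27 under 2 kb, 0.78 from 2 to 5 kb, 1.21 from 5 to 10 kb and 1.98 from 10 kb upward in all cells. In gene-rich cells the same bins had medians of -0.45, -0.07, 0.37 and 0.88.

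In D2 cells, 34 of the 36 were higher in knockout than in wild-type cells and 2 were lower, with a median of 1.14 log2 units. Of the like genes 83.4% were higher, and of all measured genes 68.5%. Of the 36, 8 were higher by at least 2, against 12.7% of all measured genes, and none was lower by at least 2, against 0.633%. Like genes had a median of 1.14 as well, with 118 of 542 (21.8%) higher by at least 2, beside 22.2% of the 36. Among gene-rich cells the direction turned: 11 were higher and 25 lower in knockout D2 cells, and the median was -0.33. None was then higher by at least 2 (4.01% of measured and 2.58% of like genes) and 5 were lower by at least 2 (11.2% and 16.2%). The like genes had a median of -0.65 and all measured genes -0.39. By length, the bin medians in D2 cells were 0.67, 0.48, 0.58 and 0.76 in all cells, with no steady order. In gene-rich D2 cells they were 0.03, -0.43, -0.42 and -0.54 from short to long exons, and 50.8%, 37.6%, 36.6% and 32.5% of the genes in these bins were higher in the knockout.

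The D1 and D2 knockout comparisons share no cells, but D1 and D2 cells of 1 genotype may share an animal. In all cells 33 of the 36 (91.7%) were higher in the knockout in both, as were 78.2% of like genes and 54.5% of all measured genes. In gene-rich cells 9 were higher in both (Birc6, Dst, Huwe1, Map1a, Map1b, Prrc2a, Sptan1, Sptbn1 and Trio) and 5 lower in both (App, Atp2b2, Clasp2, Tnrc6b and Trrap), while 20 (55.6%) were higher in D1 and lower in D2. Among like genes 23.8% were higher in both, 14.9% lower in both, and 54.3% higher in D1 and lower in D2. Among all measured genes these shares were 19.4%, 27.1% and 34.2%. Of the 14 genes with 1 sign in both, 7 turned in at least 1 of the comparisons when 1 knockout cell was left out: Map1a, App, Atp2b2 and Trrap in D1, Sptbn1 in D2, and Clasp2 and Tnrc6b in both. The sign was the same with all cells and with gene-rich cells for 30 of the 36 in D1 and for 13 of the 36 in D2.

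**Figure D3:**
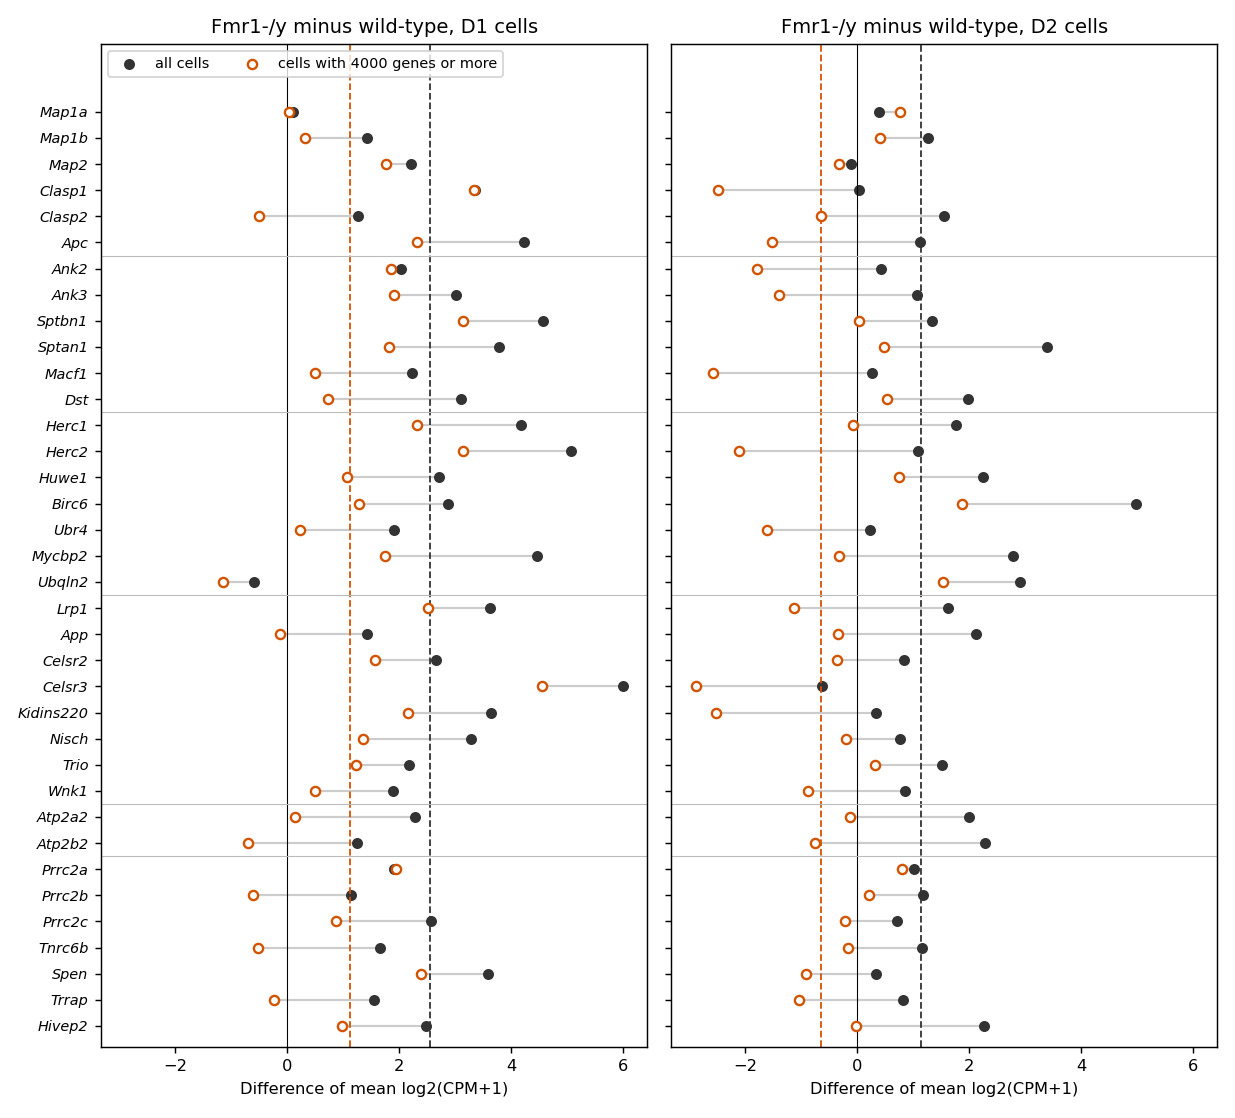
Knockout minus wild-type difference in mean log2(CPM + 1) of each of the 36 genes, ordered by role, for D1 (left) and D2 (right) cells, with all cells and with cells of at least 4000 genes. Dashed lines mark the medians of genes of like length and level; with all cells 35 of 36 points in D1 and 34 of 36 in D2 lie above 0, and with gene-rich cells 29 and 11 do.

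**Figure D4:**
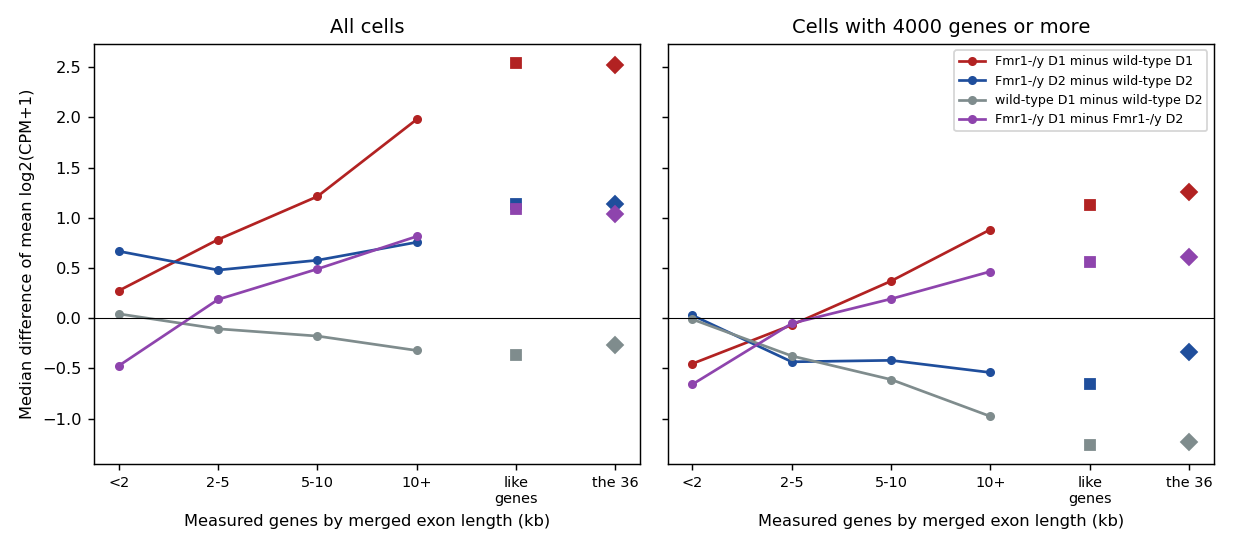
Median difference in mean log2(CPM + 1) by merged exon length for all measured genes, with the like genes as squares and the 36 genes as diamonds. The diamonds lie close to the squares, at 2.52 beside 2.54 in D1 and 1.14 beside 1.14 in D2 with all cells.

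Among microtubule-binding proteins, all 6 were higher in knockout D1 cells, with a median of 1.82, and 3 of 6 by at least 2 (27.6% of measured and 65.6% of like genes). In D2 cells 5 of 6 were higher (median 0.75), beside 68.5% of measured and 83.4% of like genes. In gene-rich cells 5 of 6 were higher in D1 (median 1.04), beside 53.6% of measured and 78.1% of like genes. In gene-rich D2 cells 2 of 6 were higher (median -0.49), beside 38.4% and 30.8%. Map1b, whose message is a long-studied FMRP target, had 279, 721 and 1224 CPM (lowest, median and highest) in knockout D1 cells, against 19.97, 369 and 1637 CPM in wild-type D1 cells. In D2 cells it had 438, 856 and 2925 CPM in knockout cells, against 3.83, 602 and 6281 CPM in wild-type cells. Both wild-type ranges held the whole knockout range, and the differences were 1.43 in D1 and 1.26 in D2, or 0.31 and 0.41 in gene-rich cells.

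Map1a, its close relative on axonal and dendritic microtubules, was nearly level in D1 cells. It had 39.9, 111 and 203 CPM in knockout D1 cells, against 4.38, 127 and 673 CPM in wild-type D1 cells. Its difference was 0.10, the smallest positive one in D1, and it was -0.09 without knockout cell 1. In D2 cells Map1a had 6.87, 126 and 454 CPM in knockout cells, against 0.881, 49.3 and 1109 CPM in wild-type cells, a difference of 0.39.

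Map2, the marker of dendrites, had 393, 1077 and 2012 CPM in knockout D1 cells, against 0, 429 and 5022 CPM in wild-type D1 cells (difference 2.21). Its knockout D2 cells had 3.49, 555 and 1295 CPM, against 0.999, 328 and 1556 CPM in wild-type D2 cells. That difference was -0.12, and it was 0.78 without knockout D2 cell 5 and -0.59 without cell 4. A single cell thus set its sign.

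Apc, a microtubule plus-end protein and part of the Wnt destruction complex, had 36.8, 238 and 836 CPM in knockout D1 cells, against 0, 3.19 and 684 CPM in wild-type D1 cells. The median wild-type D1 cell lay below the lowest knockout D1 cell, and the difference was 4.23, or 2.31 in gene-rich cells. In D2 cells it had 10.6, 119.9 and 2263 CPM in knockout cells, against 0, 193 and 2425 CPM in wild-type cells. The D2 groups covered almost the same range, and their difference of 1.11 was -1.52 in gene-rich cells. The plus-end proteins Clasp1 and Clasp2 differed by 3.35 and 1.26 in D1, and by 0.04 and 1.55 in D2. In gene-rich cells these were 3.33 and -0.51 in D1, and -2.49 and -0.64 in D2.

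All 6 genes of the membrane skeleton and the spectraplakins, which link actin to microtubules, were higher by at least 2 in knockout D1 cells, with a median of 3.06, beside 27.6% of measured and 65.6% of like genes. In gene-rich D1 cells all 6 were still higher (median 1.84, 1 of 6 by at least 2), beside 53.6% of measured and 78.1% of like genes higher. In D2 cells 6 of 6 were higher (median 1.19), beside 68.5% of measured and 83.4% of like genes. By at least 2 it was 1 of 6, beside 12.7% of measured genes. In gene-rich D2 cells 3 of 6 were higher (median -0.68), beside 38.4% of measured and 30.8% of like genes. Sptan1, the alpha spectrin of neurons, had 377, 838 and 1936 CPM in knockout D1 cells, against 0, 187 and 998 CPM in wild-type D1 cells. In D2 cells it had 180.2, 544 and 2017 CPM in knockout cells, against 0, 205 and 1109 CPM in wild-type cells. The knockout medians exceeded those of the wild type in both kinds of cell, with differences of 3.77 in D1 and 3.38 in D2, or 1.82 and 0.48 in gene-rich cells.

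Its partner Sptbn1, a beta spectrin, had 354, 863 and 1115 CPM in knockout D1 cells, against 0, 11.5 and 803 CPM in wild-type D1 cells. In D2 cells the values were 98.9, 411 and 1076 CPM in knockout cells, against 0, 249 and 7425 CPM in wild-type cells. The difference was 4.57 in D1 and 1.33 in D2, or 3.13 and 0.03 in gene-rich cells. The ankyrins, adaptors that tie membrane proteins to spectrin, differed by 2.03 (Ank2) and 3.01 (Ank3) in D1 and by 0.42 and 1.06 in D2. The spectraplakins differed by 2.24 (Macf1) and 3.10 (Dst) in D1 and by 0.27 and 1.97 in D2. In gene-rich D2 cells Ank2 was at -1.79, Ank3 at -1.39 and Macf1 at -2.57, lower in the knockout, while Dst was at 0.54.

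Of the 7 genes for ubiquitin ligases and a ubiquitin-binding shuttle, 6 were higher in knockout D1 cells (median 2.87, 5 of 7 by at least 2), and all 7 were higher in knockout D2 cells (median 2.25, 4 of 7 by at least 2). The shares higher by at least 2 were 27.6% of measured and 65.6% of like genes in D1, and 12.7% and 21.8% in D2. The shares higher by any amount were 74.7% and 93.0% in D1, and 68.5% and 83.4% in D2. Gene-rich cells gave medians of 1.28 (D1) and -0.07 (D2). Birc6, a giant ubiquitin ligase that blocks cell death, had the largest D2 difference of the 36. It had 59.1, 323 and 1043 CPM in knockout D2 cells, against 0, 3.53 and 393 CPM in wild-type D2 cells. Every knockout D2 cell held it, while 17 of 26 wild-type D2 cells did, and the difference of 4.97 stayed between 4.65 and 5.34 when any knockout cell was left out. In gene-rich cells it was 1.87, and the log2 ratio of the summed counts was 2.48.

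In D1 cells Birc6 had 0, 322 and 482 CPM in knockout cells, against 0, 4.78 and 311 CPM in wild-type cells, a difference of 2.87 (1.28 in gene-rich cells). Summed over cells, Birc6 reached 214 CPM in knockout D1 cells (exact Poisson 95% interval 209 to 219), against 66.5 CPM in wild-type D1 cells (64.4 to 68.7). It reached 411 CPM in knockout D2 cells (405 to 417), against 73.7 CPM in wild-type D2 cells (72.0 to 75.5). These intervals cover counting error only, not the spread between cells.

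Herc2, a ligase of the HERC family tied to neurodevelopmental disease in humans, had 149, 330 and 655 CPM in knockout D1 cells, against 0, 1.59 and 408 CPM in wild-type D1 cells. Its D1 difference was 5.06, or 3.13 in gene-rich cells. In D2 cells it had 0.130, 182 and 409 CPM in knockout cells, against 0, 55.0 and 821 CPM in wild-type cells, a difference of 1.09 that was -2.10 in gene-rich cells. The knockout cells thus stood high in D1 but within the wild-type range in D2. Herc1, Huwe1, Ubr4 and Mycbp2 differed by 4.17, 2.71, 1.90 and 4.46 in D1 and by 1.77, 2.25, 0.24 and 2.79 in D2. In gene-rich D2 cells they were at -0.07, 0.74, -1.60 and -0.33.

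Ubqln2, a shuttle that carries tagged proteins to the proteasome, was the shortest of the 36 and the one gene lower in knockout D1 cells. It had 0, 0.933 and 66.0 CPM in knockout D1 cells, against 0, 3.40 and 79.4 CPM in wild-type D1 cells, a difference of -0.59. In knockout D2 cells it had 0, 62.7 and 499 CPM, against 0, 3.65 and 2428 CPM in wild-type D2 cells, a difference of 2.91 (1.53 in gene-rich cells). One wild-type D2 cell, number 23, held the 2428 CPM. Ubqln2 is encoded by a single exon.

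All 8 genes for receptors and signalling proteins were higher in knockout D1 cells (median 2.97, 6 of 8 by at least 2, beside 27.6% of measured and 65.6% of like genes). In D2 cells 7 of 8 were higher with all cells (median 0.84), beside 68.5% of measured and 83.4% of like genes. With gene-rich D2 cells 1 of 8 was higher (median -0.62), beside 38.4% of measured and 30.8% of like genes. Celsr3, an adhesion receptor of the cadherin family that guides axon tracts, had the largest D1 difference. It had 50.2, 376 and 630.4 CPM in knockout D1 cells, against 0, 0 and 147 CPM in wild-type D1 cells. All 6 knockout D1 cells held it (exact Clopper-Pearson 95% interval of the share 54.1% to 100%), against 5 of 15 wild-type D1 cells (11.8% to 61.6%). These intervals treat cells as independent draws, which the labels do not show, so they describe the cells and do not compare the genotypes. Mean log2(CPM + 1) was 8.15 ± 1.33 in knockout and 2.17 ± 3.19 in wild-type D1 cells, a difference of 5.98. It was 4.54 in gene-rich cells.

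In D2 cells the direction of Celsr3 was the opposite one. It had 0, 0 and 141 CPM in knockout D2 cells, against 0, 2.92 and 565 CPM in wild-type D2 cells, with a difference of -0.62 in all cells and -2.87 in gene-rich cells. It was read in 3 of 7 knockout D2 cells (9.90% to 81.6%) and in 15 of 26 wild-type D2 cells (36.9% to 76.6%). The difference between the D1 and D2 results was not tested.

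App, the amyloid precursor and a known FMRP target, had 192, 276 and 873 CPM in knockout D1 cells, against 0, 283 and 3360 CPM in wild-type D1 cells. The medians were close, and the difference of 1.43 in all cells was -0.12 in gene-rich cells. In D2 cells App had 213, 620.0 and 1634 CPM in knockout cells, against 0, 348 and 3932 CPM in wild-type cells, a difference of 2.13 in all cells and -0.34 in gene-rich cells. Kidins220 had 7.49, 249.98 and 711 CPM in knockout D1 cells, against 0, 19.2 and 669.7 CPM in wild-type D1 cells (difference 3.64, or 2.15 in gene-rich cells). In D2 cells it had 0, 108 and 285 CPM in knockout cells, against 0, 26.5 and 550.3 CPM in wild-type cells, a difference of 0.33 that was -2.51 in gene-rich cells. Lrp1, the endocytic lipoprotein receptor, differed by 3.62 in D1 and 1.61 in D2, which was -1.14 in gene-rich D2 cells. Celsr2, Nisch, Trio and the kinase Wnk1 differed by 2.65, 3.29, 2.18 and 1.89 in D1 and by 0.83, 0.77, 1.51 and 0.85 in D2. In gene-rich D2 cells they were at -0.36, -0.19, 0.32 and -0.88.

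**Figure D5:**
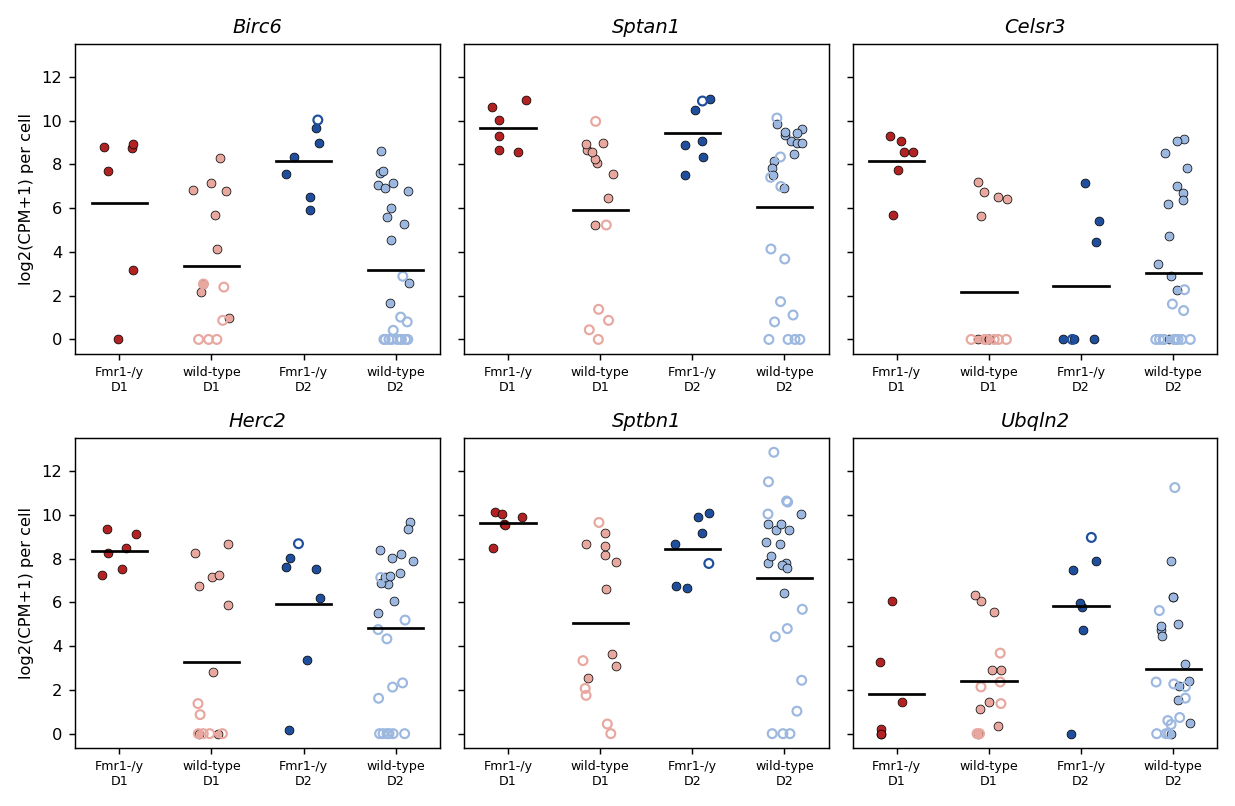
Log2(CPM + 1) of single genes in each cell of the 4 groups, with filled points for cells of at least 4000 genes, open points for the others and a line at the mean. Celsr3 is high in all 6 knockout D1 cells and at 0 in most wild-type D1 cells, and Birc6 is read in all 7 knockout D2 cells.

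Of the calcium pumps, Atp2a2 had 263, 402 and 897 CPM in knockout D1 cells, against 0, 277 and 941 CPM in wild-type D1 cells. It had 47.4, 298 and 460.1 CPM in knockout D2 cells, against 0, 105 and 1800.2 CPM in wild-type D2 cells. The groups overlapped throughout, with differences of 2.29 in D1 and 1.99 in D2 that were 0.14 and -0.13 in gene-rich cells. The plasma membrane pump Atp2b2 differed by 1.25 in D1 and 2.27 in D2, or -0.69 and -0.75 in gene-rich cells.

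All 7 RNA and transcription genes were higher in knockout cells, with medians of 1.91 in D1 and 1.01 in D2. Of measured genes 74.7% were higher in D1 and 68.5% in D2. Of like genes 93.0% and 83.4% were, with medians of 2.54 and 1.14. In gene-rich cells the 7 had medians of 0.88 (D1) and -0.16 (D2), beside 1.12 and -0.65 for like genes. Hivep2, a zinc finger transcription factor, was the one with the highest level per kb. It had 5.41, 227 and 285 CPM in knockout D1 cells, against 0, 23.8 and 496 CPM in wild-type D1 cells, and 37.1, 232 and 482 CPM in knockout D2 cells, against 0, 56.2 and 1247 CPM in wild-type D2 cells. Its differences were 2.48 in D1 and 2.25 in D2, or 0.99 and -0.02 in gene-rich cells.

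Prrc2b, an RNA-associated protein, had 0, 149.9 and 392 CPM in knockout D1 cells, against 0, 27.2 and 200.3 CPM in wild-type D1 cells. In D2 cells it had 0, 61.8 and 245 CPM in knockout cells, against 0, 3.49 and 269.9 CPM in wild-type cells. Its differences were 1.14 in D1 and 1.18 in D2, or -0.60 and 0.21 in gene-rich cells. The gene-rich D1 value was 0.47 without knockout cell 6. The transcription regulators Spen and Trrap differed by 3.58 and 1.56 in D1 and by 0.33 and 0.82 in D2, while in gene-rich cells Spen was at 2.39 and -0.91 and Trrap at -0.24 and -1.04. Prrc2a, Prrc2c and Tnrc6b, a partner of Argonaute proteins in silencing by microRNAs, differed by 1.91, 2.57 and 1.65 in D1 and by 1.01, 0.72 and 1.16 in D2. In gene-rich cells they were at 1.94, 0.88 and -0.52 in D1 and at 0.80, -0.21 and -0.16 in D2.

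Set against wild-type D2 cells, wild-type D1 cells had 11 of the 36 higher and 25 lower, with a median difference of -0.26, where the like genes had -0.37 and all measured genes -0.14. Apc (-2.37) and Sptbn1 (-2.07) were lower by at least 2, as were 1.33% of measured genes. None was higher by at least 2, against 1.01%. The highest were Prrc2b at 1.27 and Map1a at 0.71. In gene-rich cells 33 of the 36 were lower in wild-type D1 cells, with a median of -1.24. Of the 36, 10 were lower by at least 2 (11.3% of measured and 26.2% of like genes) and none higher (2.43% and 1.29%). The like genes had a median of -1.26 and the bin medians, from short to long exons, were -0.01, -0.38, -0.61 and -0.98. This comparison shares its wild-type D1 cells with the knockout comparison in D1 and its wild-type D2 cells with that in D2. Without the cells of 29 days the median of the 36 was 0.16, and over the 4 ages that both groups hold it was 0.01. All measured genes turned as well, with medians of 0.05 and 0.003.

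Between knockout D1 and knockout D2 cells, 27 of the 36 were higher and 9 lower in D1 cells, with a median of 1.04 beside 1.09 for like genes and 0.29 for all measured genes. Of the 36, 8 were higher by at least 2 (15.2% of measured and 30.2% of like genes). Only 1, Ubqln2, was lower by at least 2 (6.8% and 3.13%). The first count was 5 without knockout D1 cell 4. Without any one of the knockout D1 cells 1 to 4, the second count was 2. Celsr3 led at 5.72, with 50.2 to 630.4 CPM in knockout D1 cells and 0 to 141 CPM in knockout D2 cells, followed by Kidins220 at 3.11. Ubqln2 differed by -4.01, with 0 to 66.0 CPM in knockout D1 cells and 0 to 499 CPM in knockout D2 cells. Birc6 followed at -1.91, which was -0.66 without knockout D1 cell 6, the one knockout D1 cell with no read of it. In gene-rich cells the median of the 36 was 0.61. By at least 2, 5 were higher (12.1% of measured and 18.2% of like genes) and 1 lower (10.5% and 5.71%).

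A second list held 35 further messages known as FMRP targets, among them synaptic scaffolds, receptors and motors, all of which were measured. All 35 were higher in knockout D1 cells (median 2.20), beside 74.7% of measured and 93.0% of like genes. By at least 2 it was 22 of 35, or 62.9%, beside 27.6% of measured and 65.6% of like genes. In knockout D2 cells 29 of 35 were higher (median 0.98), beside 68.5% of measured and 83.4% of like genes. Of the 35, 2 or 5.71% were higher by at least 2 there, beside 12.7% of measured and 21.8% of like genes. In gene-rich cells 30 of 35 were higher in D1 (median 1.41), beside 53.6% of measured and 78.1% of like genes. In gene-rich D2 cells it was 6 of 35 (median -0.61), beside 38.4% and 30.8%. The largest D1 differences were those of Arc, the activity-induced capsid-like protein of synapses, at 4.63 and of Tsc2, a brake on mTOR, at 4.59. Arc averaged 1212 ± 1123 CPM over the 6 knockout D1 cells, against 422 ± 627 CPM over the 15 wild-type D1 cells (SD). The smallest D1 difference was that of the kinesin Kif1a at 0.03. In D2 cells the phosphodiesterase Pde2a (3.37) and Kif1a (2.00) were highest, while Arc (-2.61) and the adhesion protein Nlgn3 (-1.88) were lowest. These values of single genes are for all cells. In gene-rich cells the differences of the 35 ran from -0.56 to 3.36 in D1 and from -5.33 to 1.00 in D2.

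FMRP itself and 7 of its relatives and partners formed a further list. Fmr1 differed by -3.22 in D1 and -2.53 in D2. Cyfip2, a FMRP-interacting protein that also counts as a target, was the highest in D1 at 1.19, and the RNA-granule protein Caprin1 was the only other one below 0, at -0.67. In D2 the FMRP paralog Fxr2 was highest at 2.39 and none but Fmr1 was below 0. Of all measured genes 74.7% were higher in D1 and 68.5% in D2. In gene-rich cells 7 of the 8 were lower in knockout D1 cells (median -1.06), beside 46.4% of measured genes (median 0.14). In gene-rich D2 cells 6 of the 8 were lower (median -0.64), beside 61.6% of measured genes (median -0.39). These counts and medians include Fmr1, the gene knocked out, whose direction was set by the design. Fxr2 was at -1.32 in D1 and -0.30 in D2 in gene-rich cells.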

How the data were processed

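RNA drawn from single neurons by patch pipette was made into libraries with Nextera XT, per the labels' protocols. Per the submitters' processing notes, the tools named were Trimmomatic, STAR and featureCounts with genome build GRCm38. For settings, strand handling and versions, the sources used here give nothing. The deposited table holds raw read counts for 22800 symbols in each cell. A second deposited table holds a normalized signal for 14067 symbols, which equals those counts times 1 factor per cell (0.373 to 51.5). Of the columns, 2 matched no sample and were not used. A cell of the knockout D1 kind that failed quality control entered no comparison.

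CPM values were scaled by each cell's total count, with a pseudocount of 1 before log2. A gene counted as measured with a mean of 1 CPM or more and reads in 10% or more of the cells. Exon lengths and coding sequences came from GENCODE vM21 and could be matched for 94.8% of measured genes. Python 3.11.15 with pandas 2.3.3 and scipy 1.17.1 was used, and edgeR 4.0.16 only for an alternative scaling of library sizes. As the labels name no animal, no test across cells was made. Intervals are exact Poisson or Clopper-Pearson intervals at 95%, and a count of 0 allows up to 3 counts. The Poisson intervals and this limit cover counting error only, since reads without molecular identifiers are not independent molecules, and the Clopper-Pearson intervals treat cells as independent. On simulated counts with 200 of 22800 genes changed by 2 log2 units, the direction came out right for 100% of them in each of the 4 comparisons. That simulation gave all cells of a group the same mean for each gene, and changed only genes above a limit of level and detection. It did not copy the differences in complexity between cells, so it checks the calculation and not the directions found here. Alternatives covered the cells used, ages, pseudocount, library size, summed counts, the low-level filter and centring on all genes.

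The 36 genes, the other gene lists and the marker lists were chosen with earlier results of these data known. Genes given in full were, in each comparison, the 2 with the largest difference in each direction, and in each of 6 role groups the gene with the highest mean CPM per kb. All others are given by their differences.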

Additional observations from a re-analysis of the deposited data

Results flagged for a closer look

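In the 6 knockout D1 cells, 3 genes had 1 cell far below the others by Dixon's criterion for a gap relative to the range. Hivep2 was at 2.68 log2(CPM + 1) in cell 4, with the next cell at 7.38. Kidins220 was at 3.09 in cell 1, with the next at 7.08. Sptbn1 was at 8.47 in cell 6, with the next at 9.55. Each is a different cell, and 46 groups of values were examined, of which chance alone flags about 1 in 20.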

How the results depend on the processing

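For the 36 genes as a set, 141 of the recomputed medians and counts stayed within their limits, 41 moved and 4 turned. The limit for a median was the spread over cells in the group named first. That spread was wider than the median itself for knockout against wild-type D2 cells and between the wild types. Medians there could change much and stay within their limits, so the first number does not measure how stable the results are. Leaving out cells under 4000 genes gave, for knockout against wild-type D1 cells, a median of 1.25 and 9 genes higher by at least 2. For D2 the median turned to -0.33, with 0 higher and 5 lower by at least 2. The count was 10 lower for wild-type D1 against D2, and 5 higher for knockout D1 against D2. Log2 ratios of summed counts gave 0.92 and 5 higher in D1, and -0.17 with 1 higher and 1 lower in D2, and 4 higher between the knockout groups. The same ratios over all measured genes had medians of -0.04 in D1 and -0.51 in D2. A pseudocount of 10 gave a D1 median of 1.71 with 14 higher, then 2 higher in D2, 0 lower between the wild types and 2 higher between the knockouts. All measured genes then had medians of 0.46 in D1 and 0.23 in D2. A pseudocount of 0.1 gave a D1 median of 3.15, 15 higher in D2, and 13 higher and 2 lower between the knockouts. Here the medians of all measured genes were 1.58 in D1 and 0.95 in D2. Centring on all genes (medians 0.98, 0.56, -0.14 and 0.29 before) gave a D1 median of 1.54 with 14 higher, 4 higher in D2, 1 lower between the wild types, and 4 higher and 2 lower between the knockouts. Wild-type cells of 31 and 32 days alone gave 14 higher in D2, where all measured genes had a median of 0.985. In D1 the median of all measured genes was 0.44 with this setting. Between the wild types the median turned to 0.16 without the cells of 29 days (1 lower) and to 0.010 over the 4 shared ages (1 higher, 1 lower), and the lower count was 4 without 30 days and 1 without 34 days. The median of all measured genes turned too, to 0.05 without 29 days and 0.003 over the shared ages. Between the knockouts TMM gave 4 higher and 2 lower, the authors' normalized signal 3 lower, and library sizes without mitochondrial and ribosomal RNA 2 lower. Apart from the setting with cells of 4000 genes or more, shares past 2 log2 units were not counted over all genes. These counts therefore cannot be set against the whole table. The causes were not tested.

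Leaving out each knockout cell in turn gave D1 medians of 2.34 to 2.54 with 22 to 27 higher, D2 medians of 0.89 to 1.59 with 6 to 11 higher, and between the knockouts medians of 0.83 to 1.19 with 5 to 11 higher and 1 to 2 lower. Without 1 cell the sign turned for 1 of the 36 genes in D1, 8 in D2 and 6 between the knockouts, and in gene-rich cells for 9, 13 and 11. No paired analysis was possible because the labels give no replicate numbers that link cells of different groups. Many cells lack reads of long transcripts, which limits what a level of 0 shows.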

Other observations

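A further knockout D1 cell, which did not pass quality control and was taken at 31 days, had 950010 counts in 995 genes. It held reads of 12 of the 36 long transcripts, which took 0.432% of its counts, and Nisch was the highest of them at 1960.0 CPM. Some of the highest values of single genes lay in single wild-type cells. Sptbn1 reached its highest value, 7425 CPM, in wild-type D2 cell 23, the cell that also held the highest Ubqln2 level of 2428 CPM. Map1b reached 6281 CPM in wild-type D2 cell 10, and Map2 5022 CPM in wild-type D1 cell 3.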
